A study of Mus musculus with 25 samples.

Results

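Solute carriers are the membrane proteins that move sugars, ions, metals, vitamins, nucleosides and metabolites across the plasma membrane and the membranes of organelles. The genes described here are the solute carriers outside the 7 families that chiefly carry amino acids (Slc1, Slc3, Slc6, Slc7, Slc36, Slc38 and Slc43). They were chosen by their gene symbol and by a mean of at least 5 CPM (counts scaled to the same total in each library) over 25 libraries. Of 30926 genes in the deposited table, 298 had such a symbol and 117 of them reached that level. The level was thus the basis of the choice and is given only as a description. The genes just inside it were Slc9a7 at 5.04 CPM, Slc25a40 at 5.18 CPM, Slc41a1 at 5.31 CPM and Slc35e2 at 5.49 CPM. Those just outside it were Slc19a2 at 4.98 CPM, Slc9a9 at 4.87 CPM, Slc35f3 at 4.65 CPM and Slc2a13 at 4.62 CPM.

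The libraries came from KPC, a pancreatic ductal adenocarcinoma cell line of the mouse on a C57BL/6 background, in 5 groups of 5 libraries. Parental cells were held for 24 h in glutamine-free medium with dialysed serum (starved) or in complete DMEM (complete medium). The other groups carried a hairpin: shSlug1 and shSlug2 target Slug (Snai2), a transcription repressor of the Snail family, and shLuc targets luciferase and serves as their control. All 3 hairpin groups were starved, so the study holds no hairpin cells in complete medium. The starved and complete media differ in serum as well as in glutamine, and the effects of the pair cannot be told apart. Whether replicates were separate cultures is not stated in the labels, and each p-value therefore speaks of the spread among these libraries alone, which may be technical.

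Libraries held 158729 to 549893 counts, so 1 count was worth 1.82 to 6.30 CPM. Genes encoded by mitochondrial DNA took 14.2% to 28.0% of the counts of a library. Snai2 stood at 6.09 ± 3.75 CPM in shSlug1 cells and 4.29 ± 2.89 CPM in shSlug2 cells, against 55.9 ± 24.0 CPM in shLuc cells. It stood at 79.5 ± 14.5 CPM in starved parental cells and 7.54 ± 5.42 CPM in complete medium (SD, n = 5 each, here and below). Of 8 ductal markers, 6 had a mean of at least 5 CPM, and Epcam at 1.27 CPM and Cldn4 at 0.814 CPM were near 0. The 8 summed to 2104 to 2624 CPM in starved parental cells and 4049 to 5104 CPM in complete medium, and to between 4912 and 6382 CPM in the starved hairpin groups. Krt18 held the most of that sum, and Sox9 went the other way, at 33.4 CPM in starved parental cells and 13.3 CPM in complete medium. In the starved hairpin groups the means of Krt7, Krt8, Krt19 and Cdh1 were below those in complete medium, and Krt18 was above. Markers of fibroblasts, endothelium and islets summed to at most 15.3 CPM in any library. Of the leucocyte markers, Cd14 was the one with a mean above 5 CPM, at 18.9 CPM in starved cells and 68.7 CPM in complete medium. The acinar marker Cela1 averaged 7.53 CPM over the libraries. In libraries made from a whole culture, fewer cells of a kind and less RNA per cell cannot be told apart. The part of these markers in the results below was not tested.

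By substrate, the 117 genes fell into 31 mitochondrial carriers of the Slc25 family, 18 ion carriers, 18 of the nucleotide sugar family Slc35, 15 zinc carriers, 6 sugar carriers and 6 carriers of other metals. A further 5 belonged to the family of monocarboxylate (lactate) carriers, 4 each to vitamins, to lipids with choline and to organic ions, 2 to nucleosides, and Slc18b1 to no listed group. The remaining 3 symbols, Slc4a1ap, Slc9a3r1 and Slc9a3r2, name partner proteins of exchangers, not carriers. Most of the genes were low: 33 averaged under 10 CPM, 63 between 10 and 50 CPM, 13 between 50 and 100 CPM and 8 at least 100 CPM, with a median of 18.2 CPM. At these depths, changes in the lowest genes rest on few counts.

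Inner mitochondrial membranes are closed to most metabolites, and the Slc25 carriers are the gates that exchange ADP for ATP and pass phosphate, citrate, malate and cofactors. Carriers of the cell surface set what enters and leaves: Slc2 proteins let glucose in, Slc16 proteins pass lactate with protons, Slc39 proteins bring zinc into the cytosol and Slc30 proteins remove it. Pancreatic cancer cells are known for heavy use of glucose and glutamine, and glutamine feeds the mitochondrial citric acid cycle through glutamate.

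A contrast within 1 subfamily concerned the ATP-Mg/phosphate carriers Slc25a23, Slc25a24 and Slc25a25, which set the adenine nucleotide pool of the mitochondrial matrix in response to calcium. Their promoter windows are printed because, in starved parental cells against complete medium, Slc25a23 was lower while Slc25a24 and Slc25a25 were higher. Slc25a23 averaged 2.52 CPM outside complete medium and was listed only through that group, so the contrast is a description, with no test. The windows run from 250 bases before to 50 bases after an annotated start, 5′ to 3′ on the gene's strand, from RefSeq on GRCm38.p6. Capitals mark matches, on either strand, to the letters TGATGNAA (the CEBP-ATF composite site used by ATF4), CAGGTG (an E-box bound by Snail family proteins) or TGCACNC and TGCGCNC (the metal response element). The Slc25a23 window lies at chr17:57059814-57060113 on the minus strand, that of Slc25a24 at chr3:109122899-109123198 on the plus strand, and that of Slc25a25 at chr2:32451421-32451720 on the minus strand.
Slc25a23: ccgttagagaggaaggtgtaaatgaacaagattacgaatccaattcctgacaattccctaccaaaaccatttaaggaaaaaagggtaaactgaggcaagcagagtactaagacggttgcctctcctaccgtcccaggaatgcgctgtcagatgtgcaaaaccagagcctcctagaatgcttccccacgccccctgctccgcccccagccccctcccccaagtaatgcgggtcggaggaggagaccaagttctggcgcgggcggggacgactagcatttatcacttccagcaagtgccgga
Slc25a24: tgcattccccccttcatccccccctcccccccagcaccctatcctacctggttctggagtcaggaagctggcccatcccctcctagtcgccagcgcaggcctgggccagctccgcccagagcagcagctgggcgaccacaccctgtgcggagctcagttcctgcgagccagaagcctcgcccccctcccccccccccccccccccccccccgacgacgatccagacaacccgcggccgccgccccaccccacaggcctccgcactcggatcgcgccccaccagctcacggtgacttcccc
Slc25a25: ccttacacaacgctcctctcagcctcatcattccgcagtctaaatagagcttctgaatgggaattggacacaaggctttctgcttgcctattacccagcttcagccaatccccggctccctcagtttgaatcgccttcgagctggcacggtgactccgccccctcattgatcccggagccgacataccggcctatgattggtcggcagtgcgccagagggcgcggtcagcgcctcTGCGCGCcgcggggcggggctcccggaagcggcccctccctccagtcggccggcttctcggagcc
The printed Slc25a23 and Slc25a24 windows held none of the searched letters, and that of Slc25a25 held 1 metal response element spelling. Slc25a23 has 2 windows and Slc25a25 has 3, of which the most upstream is printed. The bases after the start of the printed Slc25a25 window were found near the start of 0 annotated transcripts of the gene, so that start is uncertain. A match or its absence in a window of this length describes the letters alone.

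The first comparison asks what glutamine starvation did to these genes in parental cells. All 117 passed the filter on low values that limma's test used, and 25 were called at a Benjamini-Hochberg adjusted p under 0.05, 8 higher and 17 lower in starved cells. That is 21.4% of them, against 22.4% of all 12473 genes tested, so the share called was near the background. In the higher direction the background was 10.8% and in the lower direction 11.7%. The median log2 fold change was -0.15 over the 117 genes and -0.06 over all genes tested. The libraries of both groups did not overlap for 17 of the 117 genes, against 15.7% of all genes. edgeR's quasi-likelihood test on the recovered counts called 27 of the 117, 24 of them shared with limma, against 24.6% of all genes. Of the 25 called, Slc25a23 averaged 2.52 CPM over the 20 libraries outside complete medium and so was listed only through the group it is set against. Its difference is therefore given as a description, with no test, and 24 of the 25 calls remain without it.

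**Figure D1:**
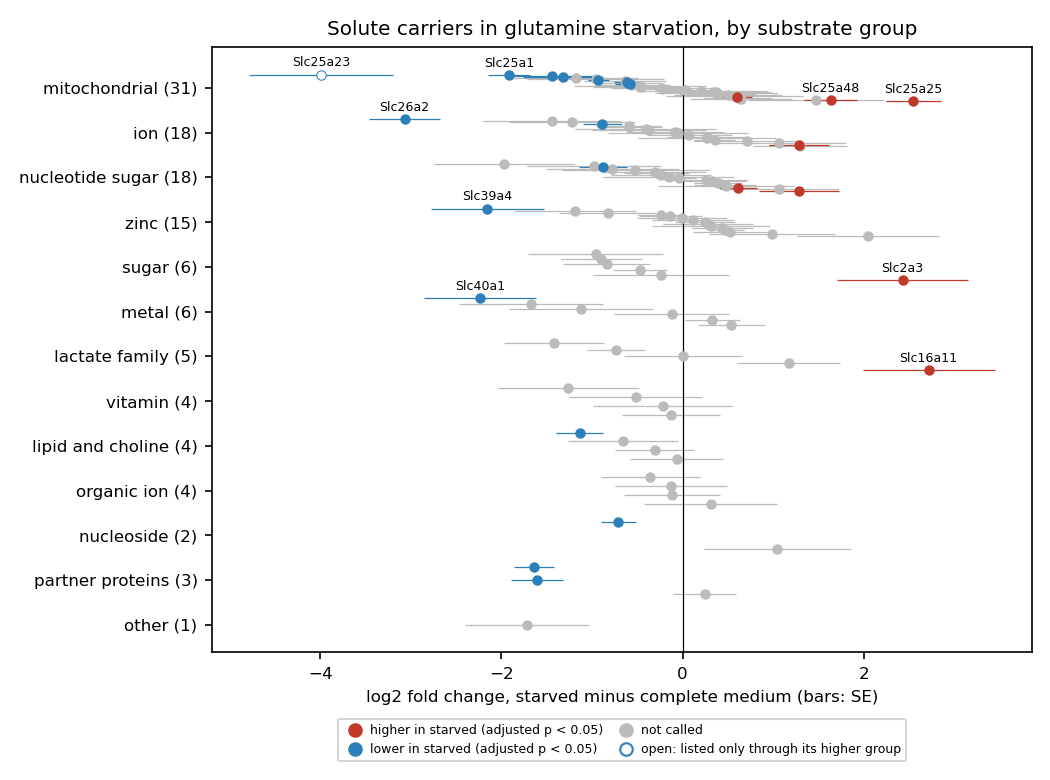
Log2 fold change (x axis, starved minus complete medium, on log2(CPM + 1)) of each of the 117 solute carriers, in rows by substrate group with the number of genes; bars are the standard error (SE) of the limma fit and colour marks the calls. The open point, Slc25a23, reached the level of the list only through complete medium. With Slc25a23 counted, mitochondrial carriers hold 11 of the 25 calls, or 35.5% of the 31, against 22.4% of all genes tested. Without it they hold 10 of 24 calls. Besides Slc25a23, the other 10 run from Slc25a1 at -1.92 to Slc25a25 at 2.55, and no vitamin or organic ion carrier was called.

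Of the 31 mitochondrial carriers, 3 were called higher (Slc25a25, Slc25a48 and Slc25a24) and 8 lower, Slc25a23 among them, and 20 were not called. Slc25a25 stood at 41.4, 57.3, 18.9, 34.6 and 37.6 CPM in the starved libraries, and at 2.68, 7.88, 4.29, 2.93 and 13.5 CPM in complete medium. Every starved library lay above every library in complete medium, and the log2 fold change was 2.55 (SE 0.31, limma adjusted p = 9.33e-10). Its relative Slc25a23 had 12.8, 0, 0, 1.82 and 0 CPM in the starved libraries, against 18.7, 51.2, 34.3, 20.5 and 48.6 CPM in complete medium. These groups did not overlap either, with starved replicate 1 apart from the other starved libraries, and the 5 starved libraries held 5 counts in all against 61. Slc25a24, the most abundant of the trio, had 185, 125, 189, 165 and 155 CPM in starved libraries, against 112, 126, 92.2, 126 and 83.7 CPM in complete medium. Its groups touched at 1 starved library, and the log2 fold change was 0.60 (adjusted p = 0.00526). Summed, the trio reached 205 ± 21.4 CPM in starved cells and 149 ± 21.7 CPM in complete medium. In starved hairpin cells Slc25a23 stayed low, with means of 1.33 CPM in shSlug1, 4.45 CPM in shSlug2 and 1.37 CPM in shLuc cells, and Slc25a25 averaged 80.1 CPM in shSlug1, 76.4 CPM in shSlug2 and 63.1 CPM in shLuc cells.

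**Figure D2:**
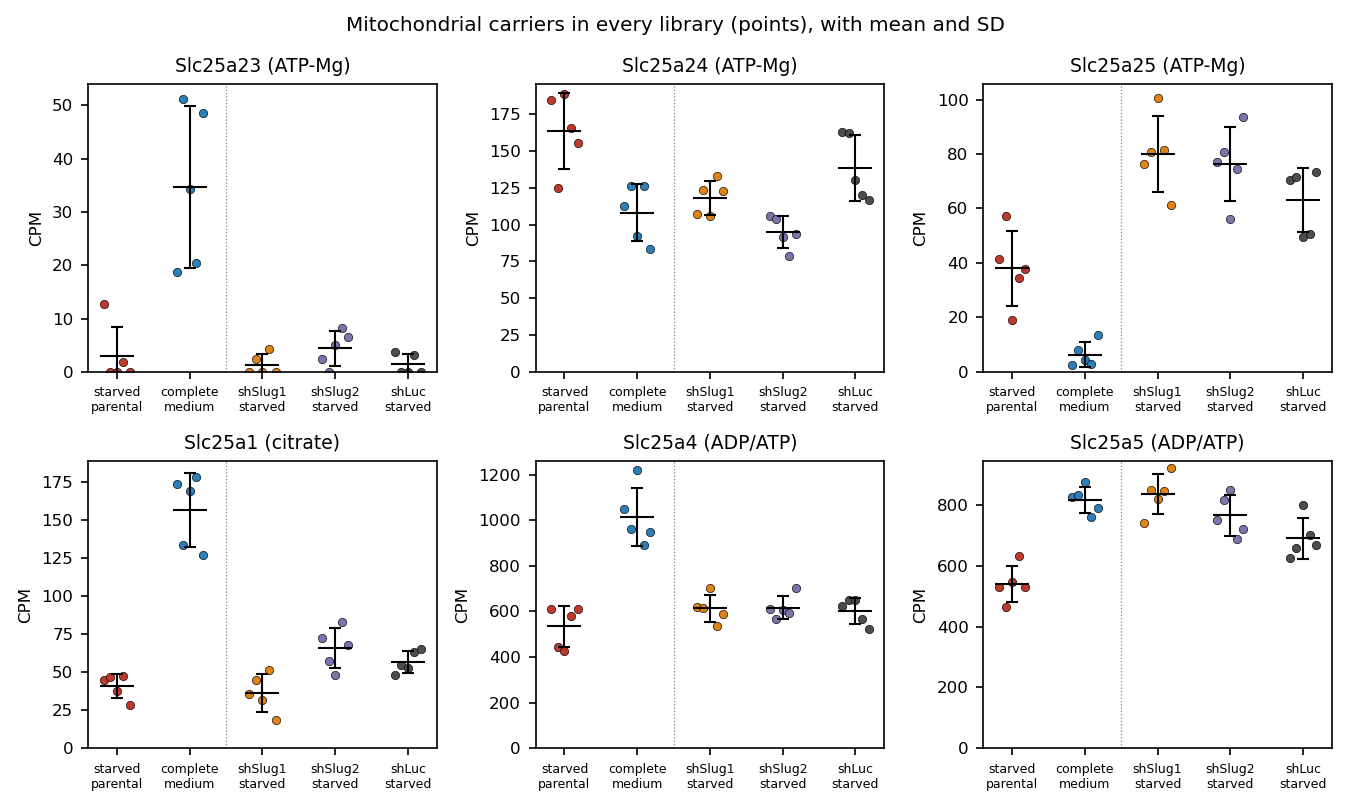
CPM (y axis, from 0) of 6 mitochondrial carriers in each library, one point per library, with group mean and SD; parental groups stand left of the dotted line and starved hairpin groups right of it. Slc25a25 is lowest and Slc25a23, Slc25a1 and Slc25a4 are highest in complete medium.

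Of the carriers that connect the citric acid cycle with the cytosol, 3 fell in starved cells. Slc25a1 exports citrate, the source of cytosolic acetyl-CoA for lipid synthesis. It had 44.6, 46.9, 37.8, 47.3 and 28.2 CPM in starved libraries, against 174, 134, 169, 179 and 127 CPM in complete medium. The groups were far apart, with a log2 fold change of -1.92 (SE 0.23, adjusted p = 9.95e-10). The dicarboxylate carrier Slc25a10, which passes malate and succinate, averaged 15.9 ± 2.22 CPM in starved cells and 45.3 ± 8.54 CPM in complete medium (log2 -1.44, adjusted p = 0.0263). Slc25a13, an aspartate-glutamate carrier of the malate-aspartate shuttle, averaged 31.4 ± 10.1 CPM in starved cells and 77.1 ± 9.36 CPM in complete medium (log2 -1.32, adjusted p = 0.0216). Libraries did not overlap for either gene, yet both calls were lost on leaving out starved replicate 3, the shallowest library, with adjusted p = 0.0503 for Slc25a10 and 0.0624 for Slc25a13. Slc25a10 also missed the threshold without complete replicate 1 or 4 (adjusted p up to 0.0634) or with a pseudocount of 0.5 (0.0579), and Slc25a13 without starved replicate 1 (0.0540). Slc25a12, the other aspartate-glutamate carrier, averaged 23.0 CPM in starved cells and 34.7 CPM in complete medium and was not called (adjusted p = 0.379). Slc25a11, the oxoglutarate-malate carrier, was also not called, at 34.3 CPM in starved cells and 37.1 CPM in complete medium.

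The energy carriers were the most abundant of the 117 genes and also fell in starved parental cells. Slc25a4, an ADP/ATP carrier, had 609, 443, 428, 580 and 611 CPM in starved libraries, against 1047, 961, 1220, 891 and 950 CPM in complete medium. Slc25a5, a second ADP/ATP carrier, had 529, 464, 548, 631 and 531 CPM in starved libraries, against 825, 831, 875, 762 and 791 CPM in complete medium. Neither gene's groups overlapped; the log2 fold changes were -0.93 (SE 0.11, adjusted p = 1.55e-09) for Slc25a4 and -0.60 (SE 0.11, adjusted p = 8.01e-06) for Slc25a5. ADP/ATP carrier genes have close copies, and the sources used here do not say how reads shared by several genes were counted, so their levels are uncertain to that extent. The phosphate carrier Slc25a3 fell to 213 ± 32.9 CPM in starved cells, against 320 ± 55.7 CPM in complete medium (log2 -0.58, adjusted p = 0.00433). Slc25a39, which imports glutathione, fell to 198 ± 31.8 CPM in starved cells, against 305 ± 51.1 CPM in complete medium (log2 -0.62, adjusted p = 7.17e-04). In starved shSlug1, shSlug2 and shLuc cells Slc25a4 averaged 613, 616 and 602 CPM and Slc25a3 162, 141 and 145 CPM, below complete medium. Slc25a5 averaged 834, 765 and 690 CPM and Slc25a39 285, 257 and 279 CPM in the same order, above starved parental cells. Against parental starved cells, limma called Slc25a5 and Slc25a39 higher and Slc25a3 lower in shLuc cells.

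These abundant genes carried much of a drop in the summed level. The 117 genes together took 0.442% of the counts in starved libraries and 0.609% in complete medium. In starved libraries the sum was 4281, 4262, 4561, 4586 and 4393 CPM, against 6063, 6054, 6572, 5982 and 5766 CPM in complete medium, with no overlap. Of the difference between the means, 1671 CPM, Slc25a4 and Slc25a5 made up 45.2%, Slc25a3 and Slc25a39 12.8%, and the other 113 genes 42.0%. Those 113 summed to 2931 ± 150 CPM in starved cells and 3632 ± 105 CPM in complete medium. In the starved hairpin groups the 117 genes summed to 4588 ± 201 CPM in shSlug1, 4559 ± 208 CPM in shSlug2 and 4577 ± 136 CPM in shLuc cells, all within the spread of one another.

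**Figure D3:**
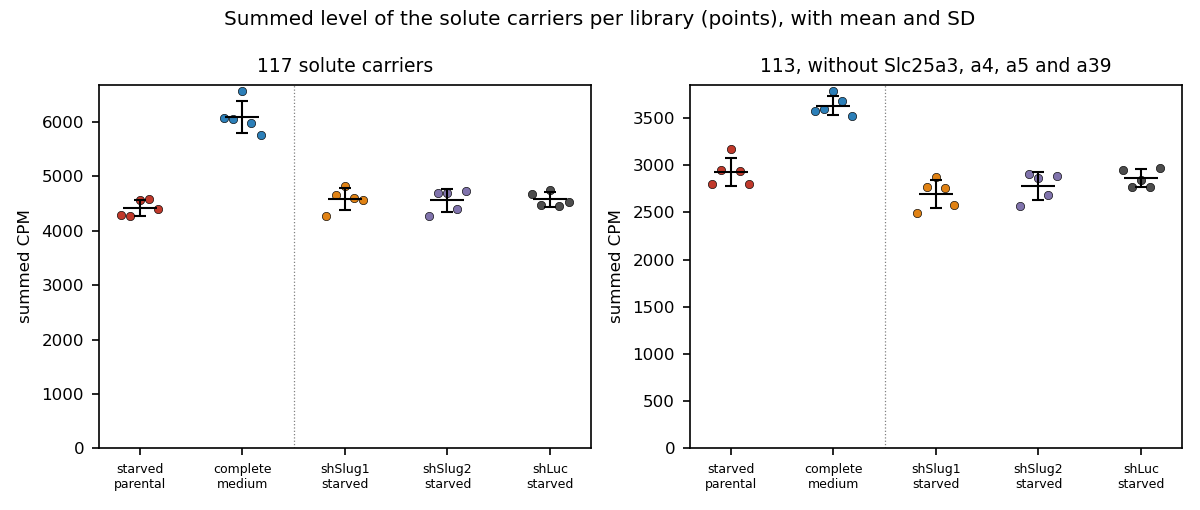
Summed CPM (y axis, from 0) of all 117 genes (left panel) and of the 113 without Slc25a3, Slc25a4, Slc25a5 and Slc25a39 (right panel), one point per library with group mean and SD. In both panels complete medium lies above the 4 starved groups, which overlap.

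Slc25a48, reported to bring choline into mitochondria, had 38.3, 41.7, 25.2, 25.5 and 18.8 CPM in starved libraries, against 10.7, 3.94, 6.43, 14.6 and 10.8 CPM in complete medium. The groups did not overlap, and the log2 fold change was 1.64 (SE 0.29, adjusted p = 1.21e-05). Slc44a1, which carries choline across the plasma membrane, moved the other way. It had 41.4, 41.7, 81.9, 45.5 and 61.1 CPM in starved libraries, against 107, 130, 124, 123 and 99.9 CPM in complete medium, again without overlap (log2 -1.14, SE 0.26, adjusted p = 4.89e-04). Its relative Slc44a2 averaged 36.4 CPM in both groups. The mitochondrial iron importers Slc25a37 and Slc25a28 summed to 43.8 ± 17.4 CPM in starved cells and 42.4 ± 13.2 CPM in complete medium, and neither was called.

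Of 48 listed partner genes of the carriers, in all substrate groups, 43 were tested, and 7 rose and 11 fell under starvation. That is 41.9%, against 22.4% of all genes tested; the list was chosen with earlier results known, so nothing is read from its share. Among genes that work with the mitochondrial carriers, 12 of 13 listed were tested and 3 rose and 1 fell. The rising genes were Timm29 and Timm22 of the complex that inserts carriers into the inner membrane, and the outer membrane channel Vdac2. Timm29 averaged 29.9 ± 8.70 CPM in starved cells and 9.94 ± 1.63 CPM in complete medium (log2 1.47, adjusted p = 0.00214), and Timm22 81.7 ± 30.6 CPM in starved cells and 43.6 ± 11.4 CPM in complete medium (log2 0.85, adjusted p = 0.00306). Mcu, the pore of the mitochondrial calcium uniporter, fell to 35.6 ± 15.8 CPM in starved cells, against 55.3 ± 10.5 CPM in complete medium (adjusted p = 0.0383). In starved hairpin cells Mcu was near its level in complete medium, at 53.7 CPM in shSlug1, 58.2 CPM in shSlug2 and 58.8 CPM in shLuc cells.

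Among the called carriers of the cell surface, the largest fall was in sulfate import. Slc26a2, the main sulfate importer of many cells, had 25.5, 20.8, 25.2, 27.3 and 14.1 CPM in starved libraries, against 182, 260, 195, 164 and 173 CPM in complete medium. The lowest library in complete medium stood well above the highest starved one, and the log2 fold change was -3.07 (SE 0.39, adjusted p = 5.43e-09). In starved hairpin cells it averaged 16.6 CPM in shSlug1, 11.6 CPM in shSlug2 and 16.6 CPM in shLuc cells, so all 4 starved groups were low. Slc35b2, which moves the activated sulfate donor PAPS into the Golgi, fell to 40.5 ± 19.1 CPM in starved cells, against 69.9 ± 21.0 CPM in complete medium (log2 -0.88, adjusted p = 0.0115). Its groups overlapped, and without starved replicate 5, the lowest at 14.1 CPM, the change was -0.55 with adjusted p = 0.117; fitting the compared groups alone gave 0.0941. Together the pair gave 63.1 ± 21.9 CPM in starved cells and 265 ± 33.8 CPM in complete medium. In starved hairpin cells the pair gave 76.1 CPM in shSlug1, 72.4 CPM in shSlug2 and 84.6 CPM in shLuc cells. limma called Slc35b2 higher in shLuc than in parental starved cells, so it was not low alike in the starved groups.

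Of the 18 ion carriers, 1 rose and 2 fell. Of the cotransporters that set cell volume by moving chloride, 2 changed, in opposite directions. Slc12a2 (NKCC1) brings in sodium, potassium and chloride, and had 134, 162, 176, 165 and 113 CPM in starved libraries, against 279, 303, 285, 264 and 246 CPM in complete medium. Slc12a4 (KCC1) lets potassium and chloride out, and had 63.8, 41.7, 56.7, 38.2 and 32.9 CPM in starved libraries, against 10.7, 23.6, 19.3, 20.5 and 18.9 CPM in complete medium. Neither gene's groups overlapped, and the log2 fold changes were -0.89 (SE 0.21, adjusted p = 0.00115) for Slc12a2 and 1.28 (SE 0.33, adjusted p = 0.00247) for Slc12a4. Of 5 listed regulators of ion carriers, 1 fell: Chp1, a cofactor of sodium-proton exchangers, averaged 87.6 ± 7.09 CPM in starved cells and 179 ± 42.7 CPM in complete medium (adjusted p = 7.99e-04). The phosphate importer Slc20a1 was not called, at 35.4 ± 8.68 CPM in starved cells and 37.6 CPM in complete medium.

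The scaffold proteins that hold exchangers at the apical membrane fell as well. Slc9a3r1 (NHERF1) had 15.9, 31.3, 18.9, 20.004 and 37.6 CPM in starved libraries, against 69.6, 70.9, 75.0, 90.8 and 64.8 CPM in complete medium (log2 -1.61, SE 0.29, adjusted p = 1.27e-05). Slc9a3r2 (NHERF2) had 44.6, 52.1, 44.1, 65.5 and 42.3 CPM in starved libraries, against 198, 114, 169, 158 and 148 CPM in complete medium (log2 -1.64, SE 0.22, adjusted p = 2.00e-08). Neither overlapped. The ductal marker sum was also lower in starved parental cells than in complete medium, and its part was not tested. In the starved hairpin groups Slc9a3r1 averaged 38.4 CPM in shSlug1, 36.8 CPM in shSlug2 and 41.1 CPM in shLuc cells. Slc9a3r2 averaged 68.2 CPM in shSlug1, 57.7 CPM in shSlug2 and 72.4 CPM in shLuc cells. The marker sum of those groups was high through Krt18, while Krt7, Krt8, Krt19 and Cdh1 were lower than in complete medium. Krt8 averaged 195 CPM in shSlug1, 212 CPM in shSlug2 and 282 CPM in shLuc cells, against 704 CPM in complete medium. Cdh1 averaged 41.2, 38.7 and 49.4 CPM in the same order, against 206 CPM in complete medium.

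**Figure D4:**
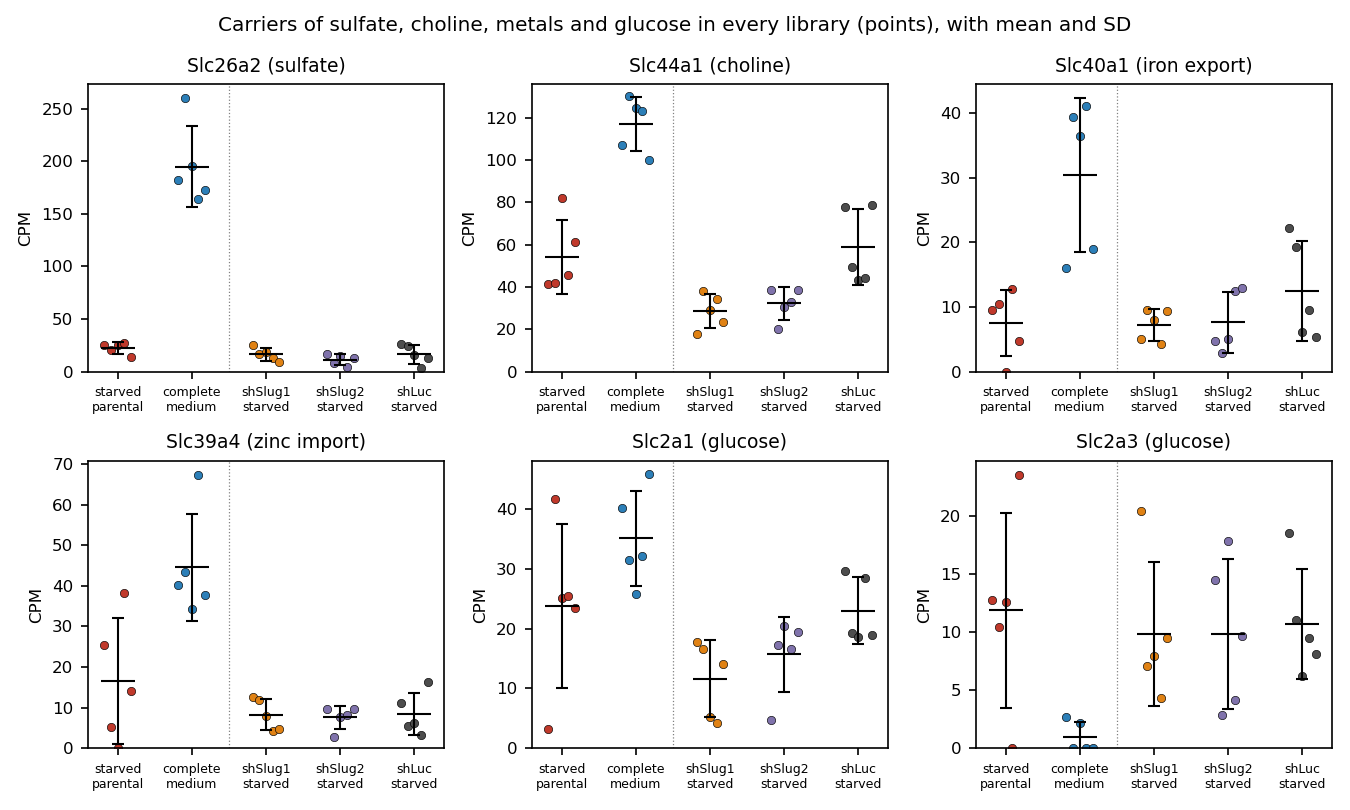
CPM (y axis, from 0) of 6 carriers of sulfate, choline, iron, zinc and glucose in each library, one point per library, with group mean and SD; parental groups stand left of the dotted line and starved hairpin groups right of it. Slc26a2 and Slc44a1 in complete medium lie above every starved library, while those of Slc2a1 in starved parental cells and complete medium overlap.

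Of 6 sugar carriers, 1 was called. Slc2a1 (GLUT1), the general glucose importer, had 3.19, 41.7, 25.2, 25.5 and 23.5 CPM in starved libraries, against 40.2, 31.5, 25.7, 32.2 and 45.9 CPM in complete medium. The groups overlapped and it was not called (adjusted p = 0.218). Slc2a3 (GLUT3), a high-affinity importer, had 12.8, 10.4, 12.6, 0 and 23.5 CPM in starved libraries, against 2.68, 0, 2.14, 0 and 0 CPM in complete medium, and was called higher (log2 2.43, SE 0.72, adjusted p = 0.00929). It rests on 13 counts in starved cells and 2 counts in complete medium, a ratio of 8.23 with a 95% interval from 1.86 to 75.1 that covers counting error only. The call was lost when the compared groups were fitted alone (adjusted p = 0.0574). The pair summed to 35.7 ± 15.0 CPM in starved cells and 36.1 ± 7.83 CPM in complete medium. Slc50a1 (SWEET1), the highest sugar carrier, averaged 23.8 CPM in starved cells and 33.1 CPM in complete medium and was not called (adjusted p = 0.291).

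Slc50a1 is also the 1 solute carrier whose window held the CEBP-ATF composite letters. Its 30 bases around them lie at chr3:89270741-89270770 on the minus strand and are shown because no called gene had such a match.
Slc50a1: agtggtctcgaTGATGCAAgggGTGCGCAg
The first capitals are that composite site and the last a metal response element spelling on the opposite strand. Windows were found for 89 of the 117 genes, 122 windows in all. The composite letters TGATGNAA occurred in 1.12% of these genes, against 2.79% of the 8996 tested genes with a window. They occurred in 0 of the 7 risen and 0 of the 13 fallen carriers with a window. CAGGTG occurred in 24.7% of the solute carriers and 20.6% of tested genes, and in 3 of the 7 risen and 3 of the 13 fallen carriers. The metal response element letters occurred in 57.3% of the solute carriers and 41.5% of tested genes; they occurred in 4 of the 7 risen and 9 of the 13 fallen carriers.

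Of 7 tested partner genes of sugar use, 1 rose and 3 fell. That is 57.1%, against 22.4% of all genes tested, and nothing is read from the share of this chosen list. Txnip, which drives glucose importers off the cell surface, rose to 143 ± 21.9 CPM in starved cells, against 19.2 ± 5.01 CPM in complete medium (log2 2.87, adjusted p = 4.28e-16). Gpi1 of glycolysis fell to 59.9 ± 13.7 CPM in starved cells, against 134 ± 27.7 CPM in complete medium (adjusted p = 2.66e-04), Pfkl to 12.7 ± 5.71 CPM in starved cells, against 37.1 ± 8.28 CPM in complete medium (adjusted p = 0.0316). Gfpt1, which starts hexosamine synthesis from fructose 6-phosphate and glutamine, fell to 39.1 ± 13.5 CPM in starved cells, against 78.2 ± 10.1 CPM in complete medium (adjusted p = 0.00439).

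The main lactate carrier of the data, Slc16a1 (MCT1), had 41.4, 26.1, 63.0, 47.3 and 47.0 CPM in starved libraries, against 88.4, 90.6, 57.9, 55.7 and 78.3 CPM in complete medium. The groups overlapped, limma did not call it (log2 -0.73, adjusted p = 0.0893), and edgeR did (adjusted p = 0.0244). Slc16a3 did not reach 5 CPM and is no part of the list. Slc16a11, a monocarboxylate family member found in liver and other tissues, was called higher (log2 2.72, adjusted p = 0.00365), with 3.19, 5.21, 6.30, 9.09 and 32.9 CPM in starved libraries, against 0, 0, 4.29, 0 and 0 CPM in complete medium. That is 15 counts against 2 counts, a ratio of 9.49 (95% counting interval 2.21 to 85.5), and starved replicate 5 held much of it. Among 4 tested partners of lactate transport and use, 2 fell. Ldha, which makes lactate, fell to 558 ± 23.4 CPM in starved cells, against 823 ± 48.7 CPM in complete medium (adjusted p = 5.98e-05). Bsg, the chaperone of MCT1, fell to 178 ± 17.98 CPM in starved cells, against 241 ± 20.7 CPM in complete medium (adjusted p = 0.0102). In starved shSlug1, shSlug2 and shLuc cells Ldha averaged 418, 483 and 464 CPM, below complete medium. Bsg averaged 320, 357 and 304 CPM in the same order, above complete medium.

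Of 15 zinc carriers, 1 was called. Slc39a4 (ZIP4), a zinc importer, had 25.5, 5.21, 0, 38.2 and 14.1 CPM in starved libraries, against 40.2, 43.3, 34.3, 67.4 and 37.8 CPM in complete medium. The highest starved library reached into the range of complete medium, and the log2 fold change was -2.16 (SE 0.63, adjusted p = 0.00759). Without starved replicate 3, at 0, it was -1.33 with adjusted p = 0.0812, and the call was also lost in DESeq2 (0.0503) and with the compared groups fitted alone (0.0697). The exporter Slc30a1 (ZnT1) averaged 12.9 ± 6.98 CPM in starved cells and 3.24 ± 3.44 CPM in complete medium; limma gave adjusted p = 0.0518 and edgeR 0.0371. The importer Slc39a10 averaged 15.1 CPM in starved cells and 27.0 CPM in complete medium, and Slc39a13, the highest zinc carrier, 80.4 CPM in starved cells and 58.3 CPM in complete medium, neither called. The 6 exporters of the Slc30 family in the list summed to 198 ± 41.4 CPM in starved cells and 155 ± 20.2 CPM in complete medium, and the 9 importers of the Slc39 family to 253 ± 38.6 CPM in starved cells and 263 ± 26.6 CPM in complete medium. Mtf1, the zinc-sensing transcription factor, rose to 30.3 ± 8.14 CPM in starved cells, against 13.4 ± 7.63 CPM in complete medium (adjusted p = 0.0228). The metallothionein Mt1 was not called (adjusted p = 0.150).

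Of 6 carriers of other metals, 1 fell. Slc40a1 (ferroportin), the exporter of iron, had 9.56, 10.4, 0, 12.7 and 4.70 CPM in starved libraries, against 16.1, 39.4, 36.4, 41.0 and 18.9 CPM in complete medium, without overlap (log2 -2.23, SE 0.62, adjusted p = 0.00489). The iron importer Slc11a2 (DMT1) averaged 23.5 CPM in starved cells and 16.6 CPM in complete medium and was not called, nor was the copper importer Slc31a1 at 47.6 CPM in starved cells and 40.9 CPM in complete medium. Of 4 listed iron genes, 3 were tested and 2 fell: the transferrin receptor Tfrc averaged 65.2 ± 4.79 CPM in starved cells and 169 ± 34.2 CPM in complete medium (adjusted p = 6.75e-04), and the ferritin subunit Fth1 538 ± 49.4 CPM in starved cells and 817 ± 78.9 CPM in complete medium (adjusted p = 4.76e-05). The other ferritin subunit, Ftl1, was not called, at 25.5 ± 17.4 CPM in starved cells and 19.5 ± 7.67 CPM in complete medium (adjusted p = 0.851).

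The nucleoside carrier of the plasma membrane, Slc29a1 (ENT1), had 73.3, 46.9, 63.0, 69.1 and 98.8 CPM in starved libraries, against 104, 110, 139, 105 and 105 CPM in complete medium. The groups did not overlap, and the log2 fold change was -0.71 (SE 0.19, adjusted p = 0.00409). Exons of Gm17080 lie on the opposite strand within its last 1000 bases, and the sources used here do not say whether counting used strand. Slc29a3, the lysosomal carrier, was not called, at 12.0 CPM in starved cells and 6.87 CPM in complete medium. Of 8 tested enzymes of nucleoside salvage, 2 rose and 2 fell. Thymidine kinase Tk1 fell to 19.7 ± 7.86 CPM in starved cells, against 122 ± 28.3 CPM in complete medium (adjusted p = 5.07e-10), and adenosine kinase Adk to 104 ± 5.88 CPM in starved cells, against 211 ± 28.7 CPM in complete medium (adjusted p = 7.32e-06). Uridine phosphorylase Upp1 rose to 24.4 ± 7.02 CPM in starved cells, against 1.55 ± 1.44 CPM in complete medium (adjusted p = 1.24e-09), and Uck1 to 59.5 ± 11.5 CPM in starved cells, against 32.7 ± 2.30 CPM in complete medium (adjusted p = 0.00356).

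Of the 18 genes of the Slc35 family, 2 rose beside the fall of Slc35b2. Slc35e4 averaged 70.8 ± 13.99 CPM in starved cells and 47.5 ± 17.1 CPM in complete medium (log2 0.62, adjusted p = 0.0238). Slc35f6 averaged 26.6 ± 9.16 CPM in starved cells and 9.98 ± 2.84 CPM in complete medium (log2 1.28, adjusted p = 0.0275). Libraries of both genes overlapped, and each call was lost on leaving out single libraries: complete replicate 2 or 4 or starved replicate 1 or 3 for Slc35e4 (adjusted p up to 0.136), and complete replicate 2, 3 or 5 or starved replicate 2 or 5 for Slc35f6 (up to 0.0744). Slc35e4 was not called by edgeR (adjusted p = 0.114) or DESeq2 (0.138), nor with no filter (0.0785) or the compared groups alone (0.0989). Slc35a4, the highest of the family, averaged 63.0 CPM in starved cells and 66.6 CPM in complete medium and was not called. None of the 4 vitamin or 4 organic ion carriers was called, the highest being the ascorbate importer Slc23a2 at 18.1 CPM in starved cells and 24.3 CPM in complete medium, and Slc10a7 at 18.8 CPM in starved cells and 20.3 CPM in complete medium. Slc18b1, a vesicular polyamine carrier, was not called at 2.03 CPM in starved cells and 6.53 CPM in complete medium (adjusted p = 0.0622).

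The second question is what Slug knockdown did to the solute carriers of starved cells. With shSlug1, 2 of the 117 genes were called against shLuc, both lower, or 1.71%, against 1.46% of all genes tested and 1.09% of them in the lower direction; 13 of the 117 had an unadjusted p under 0.05. edgeR called the same 2 genes, against 2.35% of all genes. Slc44a1 had 17.9, 37.9, 29.1, 34.3 and 23.6 CPM in shSlug1 cells, against 77.9, 49.5, 43.4, 44.3 and 78.7 CPM in shLuc cells. The groups did not overlap, and the log2 fold change was -1.01 (SE 0.26, limma adjusted p = 0.0229). The call was lost without shLuc replicate 1 or 5 (adjusted p of 0.0893 or 0.102) or without shSlug1 replicate 1 or 5 (0.0801 or 0.0541). It was also lost with no filter (0.0623), quantile scaling (0.0521) or the compared groups alone (0.0815). Slc24a2, an exchanger of sodium for calcium and potassium known mainly from neurons, had 2.55, 0, 0, 0 and 4.72 CPM in shSlug1 cells, against 7.42, 8.25, 12.4, 22.2 and 16.3 CPM in shLuc cells. It did not overlap, but it averaged 4.74 CPM over the 20 libraries outside shLuc and so was listed only through that group; its difference is a description, with no test. It rests on 2 counts in shSlug1 cells against 22 counts in shLuc cells, and without it 1 of the 117 genes was called. The libraries of Slc22a23 and Slc2a1 also did not overlap, 4 of the 117 in all against 3.13% of all genes, and neither gene was called. Slc2a1 had 11.6 ± 6.40 CPM in shSlug1 cells and 23.0 ± 5.57 CPM in shLuc cells (adjusted p = 0.291).

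With shSlug2, 0 of the 117 genes were called by limma, against 0.649% of all genes; 10 had an unadjusted p under 0.05, and edgeR and DESeq2 also called 0 (edgeR 1.1% of all genes). Slc44a1 had 38.5, 20.1, 30.6, 33.1 and 38.8 CPM in shSlug2 cells, against the shLuc values above. These groups did not overlap, but the log2 fold change of -0.83 (SE 0.26) had adjusted p = 0.149. Slc24a2 averaged 12.2 ± 5.66 CPM in shSlug2 cells and 13.3 ± 6.09 CPM in shLuc cells. The other genes whose libraries did not overlap were Slc25a24, at 94.8 ± 10.8 CPM in shSlug2 cells and 139 ± 22.6 CPM in shLuc cells, and Slc35a5, at 7.996 ± 5.05 CPM in shSlug2 cells and 21.3 ± 2.57 CPM in shLuc cells, each with adjusted p = 0.158. That is 3 of the 117, against 2.07% of all genes. Both hairpins are set against the same shLuc libraries. None of the 117 was called with both in the same direction, against 0.2% of all genes.

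The promoter window of Slc44a1 is printed because it was the solute carrier called under starvation and with 1 hairpin. It lies at chr4:53440163-53440462 on the plus strand, and the gene spans chromosome 4 from 53440413 to 53622478.
Slc44a1: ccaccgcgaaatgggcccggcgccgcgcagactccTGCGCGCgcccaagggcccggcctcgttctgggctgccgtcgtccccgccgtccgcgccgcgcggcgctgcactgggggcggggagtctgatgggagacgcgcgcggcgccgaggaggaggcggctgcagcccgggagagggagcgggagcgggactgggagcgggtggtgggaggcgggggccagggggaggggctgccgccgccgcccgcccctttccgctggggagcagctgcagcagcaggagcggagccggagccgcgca
The window, the more upstream of 2 for the gene, held 1 metal response element spelling, in capitals, and no CAGGTG or TGATGNAA.

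Between the hairpins, shSlug2 against shSlug1, 0 of the 117 genes were called by limma, against 0.513% of all genes; 5 had an unadjusted p under 0.05, and edgeR and DESeq2 called 0 (edgeR 0.706% of all genes). Libraries did not overlap for 2, Slc22a23 and Slc24a2, against 2.08% of all genes. Slc25a1 came nearest, with 72.2, 57.6, 48.5, 82.9 and 67.9 CPM in shSlug2 cells and 35.7, 45.0, 31.8, 51.5 and 18.9 CPM in shSlug1 cells. The ranges overlapped, and the log2 fold change was 0.88 (SE 0.23, adjusted p = 0.0620). Slc24a2 had 4.82, 17.3, 17.9, 8.29 and 12.9 CPM in shSlug2 cells, above every shSlug1 library, and was not called. Among the 43 tested partner genes of the carriers, 3 or 6.98% were called between shSlug1 and shLuc cells, against 1.46% of all genes. They were Mt1, which was higher at 1246 CPM in shSlug1 cells and 845 CPM in shLuc cells (adjusted p = 0.00466), and Timm10 and Wnk1, which were lower. Timm10, a chaperone that brings carriers to the inner membrane, averaged 49.96 CPM in shSlug1 cells and 105 CPM in shLuc cells (adjusted p = 0.00610), and 101 CPM in shSlug2 cells (adjusted p = 0.0384 for shSlug2 against shSlug1). With shSlug2 against shLuc, 0 of the 43 were called. Between shLuc and parental starved cells the share was 34.9%, against 23.6% of all genes. The list was chosen with earlier results known, so nothing is read from these shares.

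The hairpin control differed from the parental line under the same starvation. Between shLuc and parental starved cells 25 of the 117 genes were called, 12 higher and 13 lower in shLuc cells. That is 21.4%, against 23.6% of all genes tested, 13.5% higher and 10.1% lower, again near the background. edgeR called 24, of which 18 were shared, against 24.1% of all genes. Of the 25, 4 averaged under 5 CPM over the 20 libraries outside their higher group and so were listed only through it: Slc25a40 at 3.85 CPM and Slc29a3 at 4.13 CPM outside parental starved cells, and Slc9a7 at 4.65 CPM and Slc24a2 at 4.74 CPM outside shLuc. Their differences are given with no test, and 21 of the 25 calls remain without them. Libraries did not overlap for 13 of the 117, against 14.6% of all genes. The median of all genes lay at 0.10 on the log2 scale and that of the 117 at -0.07. The sources used here do not say how the hairpin lines were made or whether shLuc is 1 clone or a pool.

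**Figure D5:**
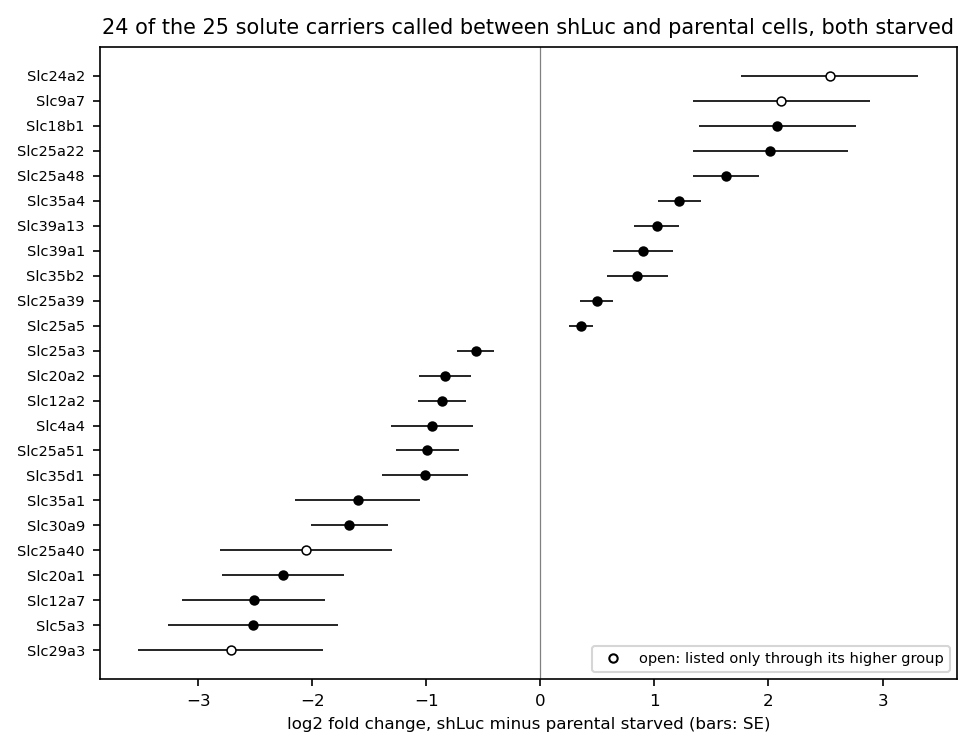
Log2 fold change (x axis, shLuc minus parental starved, on log2(CPM + 1)) of 24 of the 25 solute carriers that limma called between these starved groups; bars are the SE of the fit. The 4 open points are genes listed only through their higher group; the filled points run from -2.52 for Slc5a3 to 2.08 for Slc18b1.

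Phosphate importers were lower in the hairpin control. Slc20a1 had 11.1, 8.25, 0, 12.7 and 13.6 CPM in shLuc cells, against 38.3, 20.8, 44.1, 36.4 and 37.6 CPM in parental starved cells (log2 -2.26, SE 0.53, adjusted p = 9.44e-04). Slc20a2 had 40.8, 52.2, 71.3, 53.8 and 70.6 CPM in shLuc cells, against 86.1, 125, 113, 118 and 75.3 CPM in parental starved cells (log2 -0.84, SE 0.23, adjusted p = 0.00466). Neither overlapped. The chloride cotransporters Slc12a7 and Slc12a2 were lower too, at 3.66 ± 3.93 CPM in shLuc cells and 17.6 ± 6.03 CPM in parental starved cells for Slc12a7 (adjusted p = 0.00180). Slc12a2 averaged 85.6 ± 34.0 CPM in shLuc cells and 150 ± 26.0 CPM in parental starved cells (adjusted p = 0.00170). Slc5a3, the myo-inositol importer, averaged 2.96 ± 2.92 CPM in shLuc cells and 16.04 ± 5.51 CPM in parental starved cells (log2 -2.52, adjusted p = 0.00947). Slc29a3 averaged 1.18 ± 1.63 CPM in shLuc cells and 11.97 ± 6.502 CPM in parental starved cells. These Slc29a3 values rest on 2 counts in shLuc cells and 15 counts in parental starved cells. Slc25a40 averaged 2.63 CPM in shLuc cells and 10.5 CPM in parental starved cells.

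Slc25a48 was higher in the hairpin control, with 104, 102, 89.9, 94.9 and 67.8 CPM in shLuc cells, against 38.3, 41.7, 25.2, 25.5 and 18.8 CPM in parental starved cells (log2 1.63, SE 0.29, adjusted p = 1.69e-05). Slc35a4, whose substrate is not settled, had 171, 143, 167, 123 and 133 CPM in shLuc cells, against 57.4, 78.2, 69.3, 58.2 and 51.7 CPM in parental starved cells (log2 1.22, SE 0.19, adjusted p = 8.79e-07). Both were without overlap. The zinc importers Slc39a13 and Slc39a1 were higher, Slc39a13 at 167 ± 46.4 CPM in shLuc cells and 80.4 ± 14.9 CPM in parental starved cells (adjusted p = 6.65e-05). Slc39a1 averaged 60.1 ± 11.6 CPM in shLuc cells and 32.3 ± 8.77 CPM in parental starved cells (adjusted p = 0.00853). Slc24a2 averaged 13.3 ± 6.09 CPM in shLuc cells and 3.28 ± 5.53 CPM in parental starved cells, and neither edgeR nor DESeq2 called it here. Slc25a22, a mitochondrial glutamate carrier, averaged 19.6 ± 7.73 CPM in shLuc cells and 5.80 ± 5.88 CPM in parental starved cells (adjusted p = 0.0235). Without starved replicate 3 its adjusted p was 0.112, without shLuc replicate 1 it was 0.0626 and without shLuc replicate 3 it was 0.0557.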

How the data were processed

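The authors deposited 1 table of normalised values in CPM, counts scaled to the same total in each library, for 25 libraries of the QIAseq UPX 3' Transcriptome kit, per the labels' protocols. The build was mm10, per the submitters' processing notes; the sources used here name no aligner or annotation and do not say how strand and molecular identifiers were used. The 3' kit reads transcript ends, so levels are not divided by length and are compared between groups, not as molar amounts between genes. Dividing each column of the deposited table by its smallest step gave whole numbers for 100% of values (tolerance 0.001), and these recovered counts served the count tests. All 117 members matched GENCODE M21 by gene ID, and 6 of them have another gene's exons on the opposite strand within their last 1000 bases. Members, substrate groups and the 48 partner genes were chosen with earlier results of these data known.

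Genes reaching 5 CPM in 5 or more libraries, 12473 in number, entered two-sided tests with limma-trend 3.58.1 (R 4.3.3) on log2(CPM + 1), which understates changes of low genes, in 1 fit of all 25 libraries with 20 residual degrees of freedom, Benjamini-Hochberg adjusted over all genes. Alternatives were edgeR 4.0.16 (quasi-likelihood, TMM; 3068 genes called under starvation) and DESeq2 1.42.0 on the recovered counts, no filter on low values or one at 20 CPM, a pseudocount of 0.5 or 5, TMM or quantile scaling, mitochondrial genes left out, the compared groups alone, the replicate block, each library left out, and starved replicate 3 with shSlug1 replicates 4 and 5 left out together. The scripts were tested on simulated data. Named under starvation were up to 14 risen and 14 fallen called members with the largest change and at least 10 CPM in the higher group, up to 5 in each direction elsewhere, the highest member of each group and a list of common carriers; other members were named after their values were seen, and 1 member the rule names is not reported here. Up to 4 partner genes of smallest p per group were named. No 2 libraries of a group agreed within sampling noise (chi-square per degree of freedom of at least 1.17).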

Additional observations from a re-analysis of the deposited data

Results flagged for a closer look

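Among 94 groups of 5 libraries examined for the named genes, 7 held 1 library far from the other 4. Chance gives such a gap in about 1 of 20 groups of normally distributed values. That rate does not hold for groups of few counts, where a single library above 0 is always flagged. Slc16a11 stood at 32.9 CPM in starved replicate 5, against 3.19 to 9.09 CPM in the other starved libraries, and at 4.29 CPM in complete replicate 3, against 0 in the others. Slc25a23 stood at 12.8 CPM in starved replicate 1, with 0 to 1.82 CPM in the others, and Slc24a2 in the same library at 12.8 CPM, with 0 to 3.64 CPM in the others; each value is 4 counts. Slc39a4 stood at 67.4 CPM in complete replicate 4, against 34.3 to 43.3 CPM. Slc29a1 stood at 139 CPM in complete replicate 3, against 104 to 110 CPM. Slc31a1 stood at 88.2 CPM in starved replicate 3, the shallowest library, against 31.9 to 43.6 CPM.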

How the results depend on the processing

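Counts of called members were 25 for starvation (22 to 27 over the 12 settings, 23 to 30 leaving out 1 library) and 25 for shLuc against parental starved (18 with DESeq2 to 29 with a pseudocount of 5, and 21 to 25 leaving out 1 library), and stayed at 0 for shSlug2 against shLuc in all of them. For shSlug1 against shLuc the count of 2 became 1 with a pseudocount of 0.5, a minimum of 20 CPM or quantile scaling, 0 with no filter or the compared groups alone, and ran from 0 to 2 leaving out 1 library, 0 without shLuc replicate 5; the cause was not tested. DESeq2 called 2, of which 1 was shared. For shSlug2 against shSlug1 the count of 0 became 1 with a pseudocount of 5 or a minimum of 20 CPM, and 0 to 1 leaving out 1 library. Same-numbered libraries deviated together with correlations of -0.05 to 0.03 only. Yet the same-numbered library was the best match for 4 of 5 libraries in shLuc against parental starved and 3 of 5 in starved against complete medium. It was so for 0 of 5 with each hairpin against shLuc and 1 of 5 between the hairpins. Whether replicate numbers pair the samples is thus not settled. With the replicate block the counts were 27 for starvation, 2 for shSlug1, 0 for shSlug2, 0 between hairpins and 25 for shLuc against parental.

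Of 1065 values for 49 named results, 965 kept direction and side of the threshold, 73 lost and 16 gained a call, and 11 changed sign, all of uncalled genes under starvation on leaving out 1 library. Over those fits Slc31a1 ran from -0.045 to 0.57 (below 0 without complete replicate 4), Slc35a4 from -0.22 to 0.086, Slc10a7 from -0.26 to 0.070, Slc23a2 from -0.63 to 0.14 and Slc20a1 from -0.19 to 0.095. With 158729 to 549893 counts a library, a member at 5 CPM has about 1 to 3 counts, and intervals given cover counting error only.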
